A study of Homo sapiens with 4 samples.

Results

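The genes described here code for adaptors and kinases of the focal adhesion, the site where integrin receptors tie the actin cytoskeleton to the matrix outside the cell. They are 10 genes chosen by name, PTK2, PXN, TLN1, VCL, ZYX, ILK, PARVA, FERMT1, FERMT2 and BCAR1, of 47251 genes in the deposited gene table. The rule that lists them uses no measured value, but they were chosen with earlier results of these data known. RNA was sequenced from AGS cells, a line established from a human gastric adenocarcinoma, in 4 libraries. In 2 libraries the cells carried a short hairpin RNA (shRNA) against MFAP2, a protein of extracellular microfibrils (sh-MFAP2 replicates 1 and 2), and in 2 the cells carried a scrambled control shRNA (control replicates 1 and 2). By the labels and the methods of the study, both groups were grown in DMEM with serum, received the shRNA by lentivirus with a GFP reporter and were selected with puromycin. The comparison asks which mRNAs differ between cells with the shRNA against MFAP2 and cells with the control shRNA. The sh-MFAP2 group rests on 1 hairpin as the titles give it, while the short descriptions name the libraries sh1 and sh2, so the labels leave unclear whether replicate 2 carried a second hairpin. The labels do not say that replicates came from separate cultures, so p-values measure the spread between these libraries, which may be technical.

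At a focal adhesion, talin (TLN1) and the kindlins (FERMT1 and FERMT2) bind the tails of integrin beta subunits and switch the receptor to its active form, and vinculin (VCL) then strengthens the link from talin to actin. Paxillin (PXN) and p130Cas (BCAR1) are docking proteins that are phosphorylated on tyrosine by focal adhesion kinase (FAK, the product of PTK2) together with SRC. Integrin-linked kinase (ILK), now regarded as a pseudokinase, forms a complex with alpha-parvin (PARVA) and a PINCH protein, while zyxin (ZYX) comes to adhesions and stress fibres under tension.

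VCL and PXN make proteins that differ by an inserted coding stretch. These stretches are shown because they separate the protein forms whose shares are given further on. The transcripts VCL-201 (5482 bases) and VCL-202 (6489 bases) also differ outside the coding sequence. Sequences were read from the GENCODE 29 transcripts (GRCh38), 5′ to 3′ on the strand of the gene. Capitals mark the inserted stretch and the 12 lower case bases on either side belong to the coding sequence around it. The metavinculin exon is exon 19 of 22 of VCL-201, 204 bases or 68 codons on the plus strand, at chr10:74111909-74112112, and is absent from VCL-202. The paxillin beta exon is exon 7 of 12 of PXN-201, 102 bases or 34 codons on the minus strand, at chr12:120215560-120215661. The paxillin gamma stretch is part of exon 7 of 11 of PXN-202, 144 bases or 48 codons on the minus strand, at chr12:120215274-120215417. Both paxillin stretches enter at the same place of PXN-204, the alpha form, which holds neither, and GC content was 76.5% in the beta exon against 61.8% in the gamma stretch and 58.8% in the metavinculin exon.
metavinculin exon of VCL-201: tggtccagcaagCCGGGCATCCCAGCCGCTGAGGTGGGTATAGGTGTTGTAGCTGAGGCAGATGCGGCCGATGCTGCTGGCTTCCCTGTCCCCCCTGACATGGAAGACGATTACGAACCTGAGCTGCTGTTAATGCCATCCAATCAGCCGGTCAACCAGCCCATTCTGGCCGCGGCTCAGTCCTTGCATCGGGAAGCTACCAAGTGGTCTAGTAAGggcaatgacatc
paxillin beta exon of PXN-201: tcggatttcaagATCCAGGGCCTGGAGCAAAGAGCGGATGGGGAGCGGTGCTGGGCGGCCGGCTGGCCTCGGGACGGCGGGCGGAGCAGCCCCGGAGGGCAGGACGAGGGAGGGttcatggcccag
paxillin gamma stretch of PXN-202: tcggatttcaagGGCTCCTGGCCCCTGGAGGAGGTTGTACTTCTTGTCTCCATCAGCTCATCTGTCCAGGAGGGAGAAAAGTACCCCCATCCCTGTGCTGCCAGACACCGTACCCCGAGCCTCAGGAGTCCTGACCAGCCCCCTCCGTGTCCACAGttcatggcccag

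The gene table holds 1 value per gene and library, read as FPKM (a fragment count divided by feature length and library depth), and steps between low values implied about 54900000 to 61100000 reads per sh-MFAP2 library and 59400000 to 75100000 per control. MFAP2 was listed at 0 FPKM under both sh-MFAP2 labels, and the controls read 0.0116 and 0.0138 FPKM. These values correspond to no more than 3.02 inferred reads, so MFAP2 mRNA could not serve to check the labels and no fold is given. MFAP2 mRNA was thus near 0 in the controls too, and a lowering by the shRNA cannot be seen in these libraries. The study reports the knockdown from western blot and PCR. The epithelial label was met by EPCAM, at 193 to 210 FPKM, and by KRT8, KRT18 and KRT19, whereas CDH1 lay between 0.584 and 1.25 FPKM. CLDN4, the remaining gene of the 6 on that list, went against the label in 3 libraries, with 47.1 FPKM in sh-MFAP2 replicate 1, 0.0151 FPKM in replicate 2, and 0.291 and 0.551 FPKM in controls. Of 6 fibroblast markers only COL1A1 averaged 1 FPKM or more, and the summed level of the list was 2.12 to 2.34 FPKM in sh-MFAP2 and 4.39 to 4.96 FPKM in control libraries, with COL1A2 and DCN at 0 in all but 1 library each. Of 5 leukocyte markers only CD68 had such a mean, and the summed level was 3.55 to 3.73 against 7.43 to 8.03 FPKM, with PTPRC at 0.0175 FPKM or less. None of 4 endothelial markers passed 0.1 FPKM in any library. The fibroblast and leukocyte sums were lower in sh-MFAP2 through COL1A1 and CD68 respectively, whereas CSF1R (0.562 and 0.42 against 0.176 and 0.214 FPKM), PTPRC and LUM were above both controls, and their part in the results was not tested. In bulk RNA, fewer cells of a kind and less RNA per cell cannot be told apart.

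Of the 10 genes, 9 passed a mean of 1 FPKM and were tested with limma on log2(FPKM + 1) among 9873 genes. FERMT2, the kindlin of most mesenchymal tissues, was the gene left out. A gene was called at p under 0.01 and an adjusted p under 0.05, and 27 of the 9873 genes, or 0.273%, were called, while 0 were called by limma with any 1 library left out (555 to 2166 at an unadjusted p under 0.05). None of the 9 genes was called, and none had an unadjusted p under 0.05, which 1214 genes, or 12.3%, had. PTK2 reached a limma unadjusted p of 0.0479 with no filter, 0.0444 with a pseudocount of 0.1 and 0.0255 on summed transcripts. It was not called in any of these. Its limma unadjusted p was above 0.05 under the other alternatives that kept all libraries. These gave 0.0939 at a mean of 5 FPKM, 0.117 with quantile normalization and 0.084 with median of ratios. A replicate block gave 0.105 and the fit without trend 0.0523. With 2 libraries against 2, an exact two-sided permutation test of 1 gene cannot give a p below 0.333. In 4 of the 9 genes (PTK2, ILK, ZYX and BCAR1) both sh-MFAP2 libraries lay below both controls, as they did in 31.4% of all genes tested. In 0 of the 9 did both lie above both controls, against 17.5% of all genes tested. The median log2 fold change of the 9 genes was -0.31, beside -0.05 over all genes tested. Estimates were negative for 7 of the 9 and for 5722 of the 9873 genes tested. The median of the 9 was -0.02 once sh-MFAP2 replicate 2 was left out and -0.19 once control replicate 2 was, so that its size rested on single libraries.

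**Figure D1:**
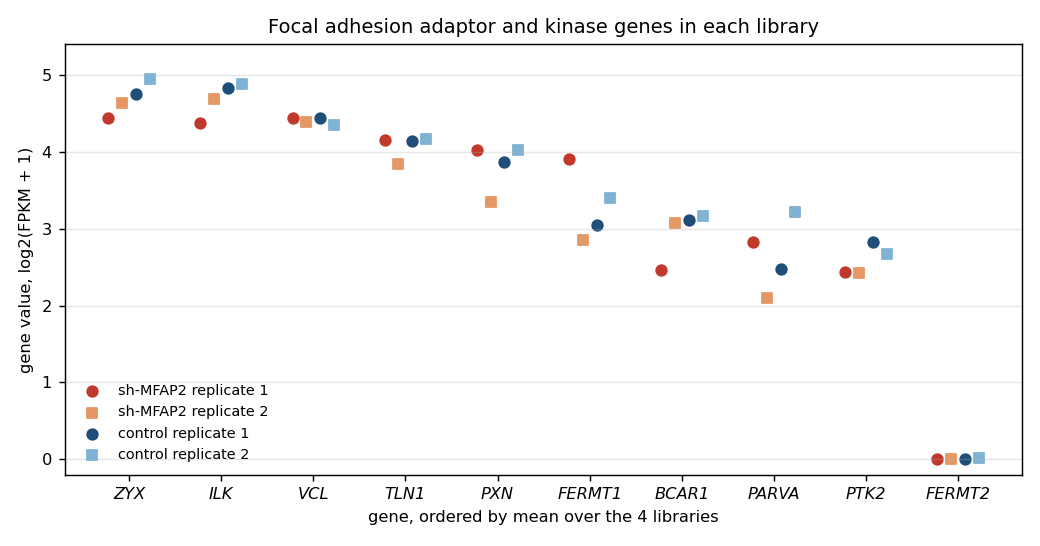
Gene values of the 10 genes on the scale log2(FPKM + 1) in each library, ordered by the mean over the 4 libraries. ZYX, ILK, BCAR1 and PTK2 show both sh-MFAP2 libraries below both controls, VCL is nearly level across the libraries, and FERMT2 sits at 0.

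ZYX and ILK had the highest gene values, with a mean of 25.1 FPKM each over the 4 libraries, followed by VCL at 20.1, TLN1 at 15.9, PXN at 13.3, FERMT1 at 9.25, BCAR1 at 6.88, PARVA at 5.54 and PTK2 at 5.05 FPKM. Along this order the ranges of neighbouring genes overlapped between libraries except at 2 places, between VCL and TLN1 and between PTK2 and FERMT2. A gene value is spread over 1 gene length, inferred from the values as 13591 bases for PTK2 and 3415 for ILK, and this length bears on the order. The merged exons of GENCODE 29 hold 13742 and 3484 bases for these 2 genes. For PARVA the inferred length was 8294 bases against 12849 in merged exons. On the scale of summed transcript FPKM the means were 48.0 for ILK, 37.2 for ZYX, 33.8 for VCL, 28.3 for PXN, 20.8 for BCAR1, 18.6 for TLN1, 16.7 for PTK2, 10.5 for PARVA and 9.74 for FERMT1. PTK2 thus stood last of the 9 on the gene scale and above PARVA and FERMT1 on the transcript scale, although its range there overlapped those of both. Among all genes tested, the mean gene values of the 9 lay between the 42nd percentile for PTK2 and the 85.2 percentile for ZYX.

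TLN1, which encodes talin-1, spans 35696948 to 35732395 of chromosome 9 on the minus strand. Its gene values were 16.7 (replicate 1) and 13.3 (replicate 2) FPKM with sh-MFAP2 and, in controls in the same order, 16.6 and 17.0 FPKM. The only library that stood apart was sh-MFAP2 replicate 2, and sh-MFAP2 replicate 1 lay within the controls. On the log2 scale the difference was -0.16 (SE 0.149), with a limma 95% interval from -0.59 to 0.26 and a limma adjusted p of 0.65. Without sh-MFAP2 replicate 2 the estimate was -0.01, and without replicate 1 it was -0.32. Its transcript TLN1-201, of 2541 codons, held 96.1% to 98.4% of the summed transcript level in each library.

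Of the kindlins, FERMT1, the form of epithelial cells, was expressed and FERMT2 was near 0. FERMT1 lies on the minus strand of chromosome 20 (6074845 to 6123544). Its libraries read 14.0 and 6.20 FPKM with sh-MFAP2 and, in controls, 7.26 and 9.55 FPKM. The sh-MFAP2 libraries enclosed both controls and differed from each other by 2.26 times, the widest gap within a group among the 9 genes tested. Between the groups the log2 fold change was 0.15 (SE 0.418), with a 95% interval from -1.03 to 1.34 that leaves room for more than a doubling in either direction, and the limma adjusted p was 0.883. Without sh-MFAP2 replicate 1 the estimate was -0.37.

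FERMT2, on the minus strand of chromosome 14 (52857268 to 52952435), was listed at 0.0036 and 0 FPKM with sh-MFAP2 and, in controls, 0.00399 and 0.00826 FPKM. These values correspond to about 1.87, 0, 2.01 and 5.27 inferred reads, and no fold is given. The kindlin of blood cells, FERMT3, lay between 0.191 and 0.486 FPKM, below the level tested, so that FERMT1 was the only one of the 3 kindlin genes with a mean of 1 FPKM.

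VCL, which lies on the plus strand of chromosome 10 (73995193 to 74121363), was the most even of the genes. Its libraries read 20.6 and 19.9 FPKM with sh-MFAP2 and, in controls, 20.6 and 19.3 FPKM, so that the highest library was 1.07 times the lowest. Its log2 fold change was 0.02 (SE 0.105), with a 95% interval from -0.27 to 0.32 and a limma adjusted p of 0.936.

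ZYX, on the plus strand of chromosome 7 (143381080 to 143391111), had 20.7 and 23.9 FPKM with sh-MFAP2 and, in controls, 25.9 and 29.9 FPKM. Both sh-MFAP2 libraries lay below both controls, with means of 22.3 ± 2.27 and 27.9 ± 2.80 FPKM (SD, n = 2 each) and a ratio of 0.801. The gap between sh-MFAP2 replicate 2 and control replicate 1 was smaller than the gap between the replicates of either group. The fit gave a log2 fold change of -0.31 (SE 0.142), with a 95% interval from -0.71 to 0.10 and a limma adjusted p of 0.46.

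PXN, on the minus strand of chromosome 12 (120210439 to 120265771), had 15.2 and 9.18 FPKM with sh-MFAP2 and, in controls, 13.6 and 15.2 FPKM. As with TLN1, sh-MFAP2 replicate 2 alone was low and replicate 1 lay at the level of the higher control. The estimated log2 fold change was -0.27 (SE 0.267), with a 95% interval from -1.03 to 0.49 and a limma adjusted p of 0.677. Without sh-MFAP2 replicate 2 the estimate was 0.07, and without replicate 1 it was -0.60.

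BCAR1, on the minus strand of chromosome 16 (75228187 to 75268053), had 4.52 and 7.39 FPKM with sh-MFAP2 and, in controls, 7.62 and 7.97 FPKM. The groups did not overlap, but the separation came from sh-MFAP2 replicate 1, since replicate 2 was close to the lower control. Its log2 fold change was -0.37 (SE 0.241), with a 95% interval from -1.05 to 0.31 and a limma adjusted p of 0.555. Without sh-MFAP2 replicate 1 the estimate was -0.07, against -0.67 without replicate 2.

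PTK2, the gene of FAK, lies on the minus strand of chromosome 8 (140657900 to 141002216). Its libraries read 4.42 and 4.35 FPKM with sh-MFAP2 and, in controls, 6.11 and 5.35 FPKM, with means of 4.38 ± 0.0488 and 5.73 ± 0.540 FPKM (SD, n = 2 each). Both sh-MFAP2 libraries lay below both controls, and the distance from them to the lower control was larger than the gap between the controls. PTK2 had the smallest unadjusted p of the 9 genes, with a log2 fold change of -0.32 (SE 0.113), a 95% interval from -0.64 to 0.00, a limma p of 0.051 and a limma adjusted p of 0.406. Its main transcript PTK2-240, of 1052 codons, had 9.37 and 9.81 FPKM with sh-MFAP2 and, in controls, 13.4 and 12.4 FPKM. That transcript held 66.1% to 68.6% of the summed level in each library, while PTK2-201 held 3.65% to 8.82%.

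ILK lies on the plus strand of chromosome 11 (6603708 to 6610874). Its libraries read 19.8 and 24.7 FPKM with sh-MFAP2 and, in controls, 27.4 and 28.4 FPKM, with means of 22.2 ± 3.52 and 27.9 ± 0.689 FPKM (SD, n = 2 each). Both sh-MFAP2 libraries lay below both controls, and replicate 1 was the lower. This came to a log2 fold change of -0.32 (SE 0.151), with a 95% interval from -0.75 to 0.11 and a limma adjusted p of 0.462. The estimate was -0.17 without sh-MFAP2 replicate 1 and -0.48 without replicate 2. ILK shares 2374 exon bases with TAF10 on the opposite strand, itself at 4.47 to 5.5 FPKM, and whether the values were counted by strand is not given in the sources used here, so without strand the reads of the pair cannot be told apart.

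PARVA lies on the same chromosome from 12377185 to 12535356 on the plus strand. Its libraries read 6.07 and 3.28 FPKM with sh-MFAP2 and, in controls, 4.57 and 8.26 FPKM. The highest library was 2.52 times the lowest, the replicates differed by 1.85 times with sh-MFAP2 and by 1.81 times in controls, and the groups overlapped. The log2 fold change of -0.38 (SE 0.388), the most negative of the 9, had a 95% interval from -1.49 to 0.72 and a limma adjusted p of 0.678. With either sh-MFAP2 replicate 2 or control replicate 2 left out, the estimate was -0.02.

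**Figure D2:**
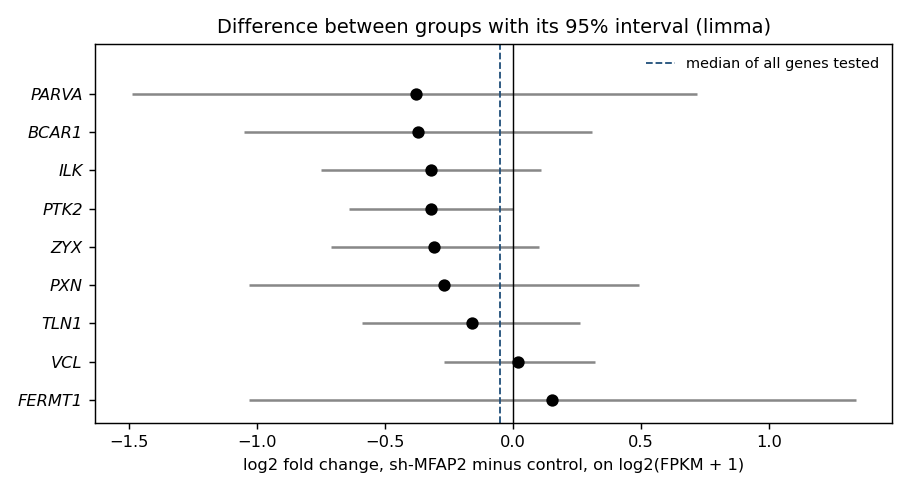
Log2 fold change (sh-MFAP2 minus control, on log2(FPKM + 1)) of the 9 genes tested, with the limma 95% interval as a line and the median of all genes tested as a dashed line. All intervals include 0. That of PTK2 ends at 0.00 after rounding (limma p of 0.051), the others reach farther past 0, and FERMT1 and PARVA have the widest.

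The transcript table lists 149 transcripts of the 10 genes, and 23 of them averaged 1 FPKM or more and were tested among 22312 transcripts. No transcript of any gene was called (0% of those tested), and 1704, or 7.64%, had a limma unadjusted p under 0.05, with 0 of the 23 among them. Both sh-MFAP2 libraries lay below both controls in 8 of the 23 transcripts and in 24.9% of all transcripts tested, and above both in 2 of the 23 and in 17.8% of all. The share of each transcript in its gene, tested as the log2 ratio of the transcript to the other transcripts of the gene, was fitted for 21530 transcripts. None of these shares was called either (0%), and 1198, or 5.56%, had a limma unadjusted p under 0.05, with 0 of the 23 members' shares among them. The share was below both controls in 6 of the 23 and in 17.7% of all, and above both in 3 of the 23 and in 18.2% of all.

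The 2 transcripts above both controls were VCL-201, with the metavinculin exon, and PXN-202, with the paxillin gamma stretch, whereas PXN-201, with the paxillin beta exon, overlapped the controls. Metavinculin, known as the form of muscle and platelets that changes how vinculin bundles actin, is coded by VCL-201 (1134 codons). VCL-201 had 13.9 and 10.1 FPKM with sh-MFAP2 and, in controls, 6.91 and 9.49 FPKM, while VCL-202 (1066 codons, vinculin) had 19.6 and 20.3 against 25.2 and 20.6 FPKM. The make-up of VCL by transcript thus varied between libraries more than its gene value. As a percentage of VCL-201 plus VCL-202, metavinculin made up 41.5% and 33.2% in sh-MFAP2 and 21.5% and 31.5% in control libraries. These are shares of whole transcript values, and use of the exon alone was not measured. The groups did not overlap, yet control replicate 2 was nearer to sh-MFAP2 replicate 2 than to control replicate 1. The log2 ratio of VCL-201 to the rest of the gene differed by 0.68 with a 95% interval from -0.41 to 1.77 and a limma unadjusted p of 0.159, and was not called.

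For PXN, the gamma form PXN-202 (605 codons) had 8.02 and 6.86 FPKM with sh-MFAP2 and, in controls, 5.52 and 4.80 FPKM. The alpha form PXN-204 (557 codons), the common paxillin of most tissues, had 15.9 and 6.49 FPKM with sh-MFAP2 and, in controls, 14.8 and 16.5 FPKM, and the beta form PXN-201 (591 codons) had 4.43 and 2.70 against 4.34 and 6.30 FPKM. In sh-MFAP2 replicate 2, the library with the low gene value, alpha and beta were both at their lowest and gamma was above both controls. Of the 3 forms together, gamma made up 28.3% and 42.7% in sh-MFAP2 and 22.4% and 17.4% in control libraries. The share of alpha was 56.1% and 40.5% in sh-MFAP2 and 60.0% and 59.8% in control libraries, so that sh-MFAP2 replicate 1 was near the controls. Beta made up 15.6% and 16.8% against 17.6% and 22.8%. The log2 ratio of PXN-202 to the rest of the gene differed by 1.00 with a 95% interval from -0.06 to 2.06, the smallest p among the members' shares (limma unadjusted p of 0.0593, adjusted p of 0.865), and was not called. PXN shares 918 exon bases with PXN-AS1 on the opposite strand, which had 1.11 to 1.75 FPKM, and VCL shares 1109 with AP3M1, at 3.8 to 6.27 FPKM.

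**Figure D3:**
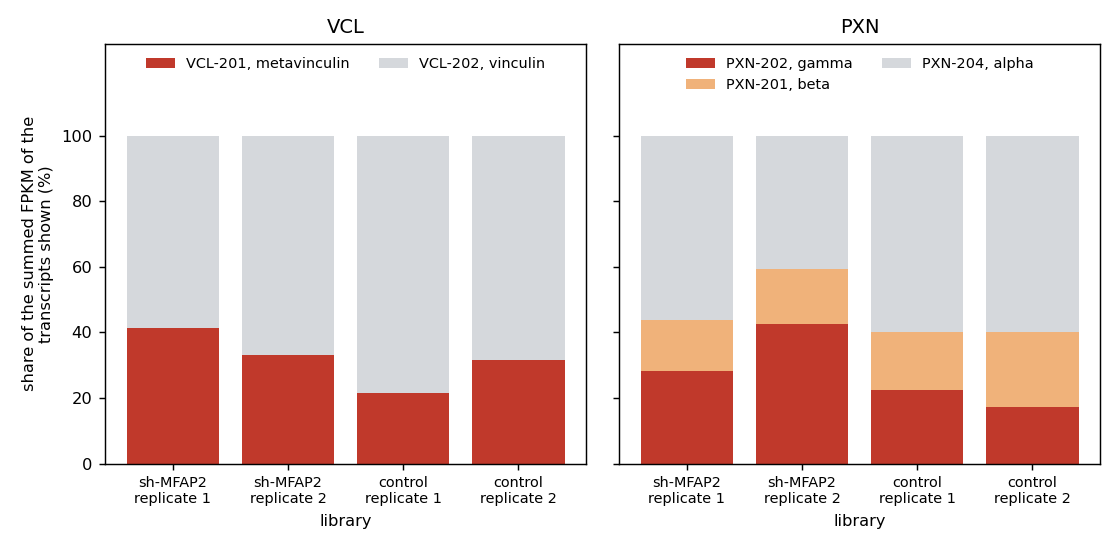
Share (%) of each protein form in the summed FPKM of the transcripts shown, as stacked bars from 0 to 100% for each library. Metavinculin ranges from 21.5% to 41.5% of VCL, and paxillin gamma from 17.4% to 42.7% of PXN, both higher in the sh-MFAP2 libraries than in the controls. Neither was called as a share of its gene, and 18.2% of all transcript shares tested lay above both controls.

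In ILK most of the summed level came from transcripts that code for the same protein. ILK-201, ILK-202 and ILK-203 share 1 coding sequence of 452 codons and differ only outside it, and together they made up 84.7% and 90.8% of the summed ILK level in sh-MFAP2 and 90.7% and 91.0% in control libraries. Within that set ILK-203 had 8.92 and 15.7 against 17.7 and 19.3 FPKM, and ILK-202 had 7.52 and 8.61 against 11.9 and 10.6 FPKM, both below the controls in each library. ILK-201 had 15.4 and 19.0 FPKM with sh-MFAP2 and, in controls, 17.7 and 19.8 FPKM, which overlap. For BCAR1, the transcripts of 870 codons (BCAR1-201 and BCAR1-207) made up 58.9% and 79.8% of the 4 transcripts tested in sh-MFAP2 and 66.0% and 72.9% in controls. The main transcript of ZYX, ZYX-201 (572 codons), had 28.6 and 31.0 against 34.6 and 35.8 FPKM. PARVA-201 (372 codons) and FERMT1-201 (677 codons) held 95.7% to 98.2% and 94.5% to 99.1% of the summed level of their genes.

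Around the 10 genes, 5 lists of other focal adhesion genes were taken, 65 genes in all, of which 47 were tested. The lists were chosen with earlier results of these data known, so the counts that follow cannot serve as a test of these genes. None of the 47 was called. An unadjusted limma p under 0.05 was found for 12 of the 47, 11 lower and 1 higher in sh-MFAP2, beside 12.3% of all genes tested. Of the 1214 such genes among all tested, 830 were lower and 384 higher. Both sh-MFAP2 libraries lay below both controls in 20 of the 47 and above both in 6, beside 31.4% and 17.5% of all genes tested. The median log2 fold change of the 47 was -0.13, beside -0.05 over all genes tested.

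Of 15 paralogues of the 10 genes, 8 were tested, with a median log2 fold change of -0.01. NEDD9, a docking protein of the Cas family to which BCAR1 belongs, had 7.29 and 7.90 FPKM with sh-MFAP2 and, in controls, 9.68 and 10.9 FPKM, with a log2 fold change of -0.39 (SE 0.118) and a limma adjusted p of 0.394. PTK2B, the FAK relative PYK2, went the other way at 1.54 and 1.45 against 1.22 and 1.30 FPKM (log2 fold change 0.14), and so did PARVB, beta-parvin, at 2.60 and 2.71 against 2.22 and 2.15 FPKM (log2 fold change 0.20). The other zyxin family genes showed no common direction, with log2 fold changes of 0.26 for AJUBA, 0.04 for TRIP6, -0.08 for LIMD1 and -0.13 for LPP. TLN2, the second talin gene, had a log2 fold change of -0.06 and a mean of 2.15 FPKM, against 15.9 for TLN1.

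Of 3 partners of ILK, RSU1 and LIMS1 were tested. RSU1, which binds the PINCH protein of the ILK complex, had 8.61 and 9.57 FPKM with sh-MFAP2 and, in controls, 17.8 and 16.6 FPKM. The groups were well apart, with a log2 fold change of -0.85 (SE 0.115), a 95% interval from -1.18 to -0.52, a limma unadjusted p of 0.00223 and a limma adjusted p of 0.21, so that RSU1 was not called. LIMS1, which encodes PINCH-1, had 20.3 and 7.11 FPKM with sh-MFAP2 and, in controls, 10.8 and 10.5 FPKM, and here too sh-MFAP2 replicate 2 was lowest and replicate 1 highest, as in FERMT1.

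Of 14 actin linkers, 10 were tested, and 3 had an unadjusted p under 0.05, as 12.3% of all genes tested had. Each of the 3 was lower in sh-MFAP2, as were 830 of the 1214 such genes among all tested. TNS4, a tensin that binds integrin tails, had 54.9 and 59.6 against 81.9 and 88.4 FPKM, a log2 fold change of -0.56 (SE 0.116) and a limma adjusted p of 0.33. ACTN1, the cross-linker alpha-actinin-1, had 32.1 and 32.5 against 40.9 and 44.0 FPKM (log2 fold change -0.38, limma adjusted p 0.379). ENAH, a relative of VASP that promotes actin growth, had 15.9 and 13.7 against 19.8 and 21.5 FPKM (log2 fold change -0.46, limma adjusted p 0.385).

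Of 13 kinases and phosphatases, 12 were tested and 6 had an unadjusted p under 0.05, as 12.3% of all genes tested had. Among all genes tested, 384 of the 1214 such genes were higher. PTPN11, the phosphatase SHP2, was the one gene of the 6 that was higher, at 28.3 and 25.7 FPKM with sh-MFAP2 next to 12.3 and 15.8 in controls (log2 fold change 0.91, SE 0.164, limma adjusted p 0.302). PTPN1, the phosphatase PTP1B, had 14.3 and 8.67 against 22.5 and 24.1 FPKM (95% interval of the log2 fold change from -1.74 to -0.26, limma adjusted p 0.368). ABL1, a tyrosine kinase, had 3.18 and 3.14 against 10.4 and 5.30 FPKM (log2 fold change -1.03), and its 2 controls differed from each other by more than the lower one differed from sh-MFAP2. PTPN12, a phosphatase of p130Cas, had a log2 fold change of -0.52, and the p21-activated kinases PAK4 and PAK2 had -0.44 and -0.33. SRC itself was tested and overlapped between groups, with 9.63 and 8.17 FPKM with sh-MFAP2 and, in controls, 7.50 and 9.07 FPKM.

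Of 20 adaptors and GTPase regulators, 15 were tested. ARHGEF7, the exchange factor beta-PIX that paxillin recruits through GIT proteins, had 3.28 and 3.54 against 4.94 and 4.41 FPKM (log2 fold change -0.36, limma adjusted p 0.394). DOCK1, which acts downstream of p130Cas and CRK, had 6.28 and 6.35 against 7.44 and 7.97 FPKM (log2 fold change -0.25, limma adjusted p 0.424). The median log2 fold change was -0.15 for these genes, -0.23 for the kinases and phosphatases and -0.22 for the actin linkers.

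**Figure D4:**
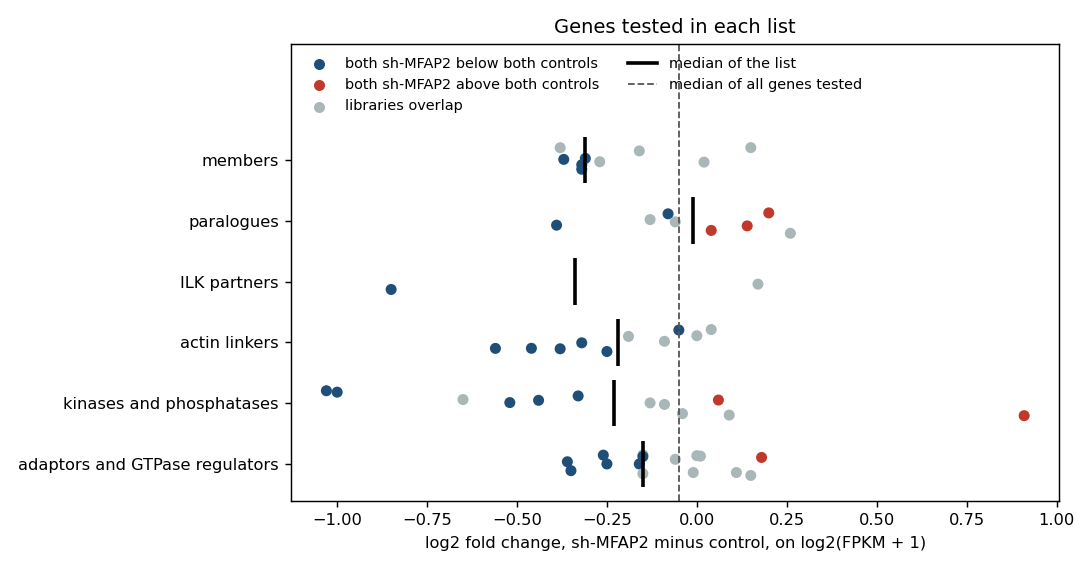
Log2 fold change (sh-MFAP2 minus control, on log2(FPKM + 1)) of each gene tested in the 10 genes, marked members, and in the 5 lists around them, with the list median as a black bar and the median of all genes tested as a dashed line. Blue points have both sh-MFAP2 libraries below both controls and red points above. The lists centre between -0.34 and -0.01, and PTPN11 at 0.91 stands alone on the right.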

How the data were processed

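The authors deposited a gene table and a transcript table with 1 value per library, and the unit, program and annotation are not given in the sources used here. Per the labels, the submitters' processing notes name the human build hg38. The deposited values were taken as FPKM. Each gene value was the sum of transcript FPKM times length over 1 gene length shared by the libraries. Transcript lengths are columns of the authors' tables, and 0 columns were left unmatched to a sample. Gene positions, coding lengths and sequences came from GENCODE 29 (GRCh38), and all 10 genes were found there.

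Genes averaging 1 FPKM or more were fitted with limma 3.58.1 (R 4.3.3) on log2(FPKM + 1), with no covariate, and p-values were adjusted over all genes by Benjamini-Hochberg. A call needed p under 0.01 and adjusted p under 0.05. Transcripts and their shares were fitted in the same way. Fold changes on this scale understate low genes. Each gene had about 3.77 degrees of freedom, prior included. The fit was tested on simulated data. Between 63.7% and 64.5% of low values fell on whole steps (within 0.05 of a read, 10% by chance), too few for a count test, and intervals on single values cannot be given. Python 3.11.15, pandas 2.3.3, numpy 2.4.6, scipy 1.17.1 and matplotlib 3.10.9 were used.

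The 10 genes and the lists around them were chosen with earlier results of these data known. Named are the 10 genes, their transcripts with a mean of at least 1 FPKM, tested paralogues and ILK partners, genes of the other 3 lists with an unadjusted p under 0.05 or, failing 2, those of smallest p, and MFAP2. FERMT3, SRC and genes overlapping a member were named outside this rule after their values were seen, as were genes of the closing section that the text marks so. The value of 1 marker gene is not reported here. Alternatives tried were no filter, a mean of 5 FPKM, a pseudocount of 0.1, quantile normalization, median of ratios, a replicate block, no trend, an unadjusted threshold, summed transcripts and leaving out each library.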

Additional observations from a re-analysis of the deposited data

How the results depend on the processing

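No member was called under any alternative run, and no member transcript or share was under the 5 FPKM mean, the pseudocount of 0.1, the replicate block, the unadjusted threshold or a left-out library, the alternatives run for them. Over all genes tested, 27 calls became 6 with no filter, 9 at a mean of 5 FPKM and 1214 at an unadjusted p under 0.05, and leaving out any 1 library gave 0 calls, where the remaining library of that group is assumed to vary like the others. At an unadjusted p under 0.05, 555 to 2166 genes passed with a library left out. The replicate number as a block gave 0 calls of all genes, 722 of which passed the unadjusted threshold, and the pairing changed no other call. Samples with the same number did not deviate together over the genes tested (correlation -0.05716), which cannot show whether same-numbered libraries were prepared together. The cause of these differences was not tested. Signs turned without a library for FERMT1 (range -0.374 to 0.684), PXN (-0.599 to 0.068) and VCL (-0.02 to 0.066, with -0.002 without sh-MFAP2 replicate 1). FERMT1 was -0.374 on leaving out sh-MFAP2 replicate 1 and -0.021 on leaving out control replicate 1. VCL was -0.02 without control replicate 2 and PXN 0.068 without sh-MFAP2 replicate 2. PTK2, ZYX, ILK, BCAR1, TLN1 and PARVA kept a negative sign under each alternative run, from -0.402 to -0.234 for PTK2, -0.407 to -0.208 for ZYX, -0.476 to -0.165 for ILK, -0.67 to -0.068 for BCAR1, -0.315 to -0.007 for TLN1 and -0.752 to -0.018 for PARVA, the last 3 close to 0 at that end. Values carry no counting error, and 2 libraries a group limit what can be called.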

Other observations

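For PARVA, sh-MFAP2 replicate 1 and control replicate 2 lay above the other 2 libraries. Of the 10 genes, FERMT1, PXN and TLN1 had this order too. It was also seen for other genes of the lists, of which LPP, TNS3 and ARHGAP35 are given here, chosen after their values were seen. LPP, of the zyxin family, had 2.36 and 0.771 FPKM with sh-MFAP2 and, in controls, 1.06 and 2.47 FPKM. TNS3, a tensin, had 8.95 and 5.43 against 5.86 and 9.63 FPKM. ARHGAP35, of the adaptors and GTPase regulators, had 11.0 and 1.2 against 1.26 and 13.4 FPKM.

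Transcripts not labelled as protein coding made up at most 11.9% of the summed level of PXN in any library and at most 5.24% of that of VCL, with values of 6.49% and 11.9% in sh-MFAP2 and 9.07% and 9.93% in control libraries for PXN. For TLN1 they made up 3.33% and 3.89% in sh-MFAP2 and 1.59% and 1.88% in control libraries. The deposited table also lists a VCL transcript with no entry in GENCODE 29, ENST00000436396, at 0.521 and 2.42 against 0.607 and 1.28 FPKM.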
